A study of Mus musculus with 20 samples.

Results

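Keratins are the proteins of the intermediate filaments of epithelial cells, and each filament is built from pairs of a type I and a type II chain. Simple epithelia use Krt8 with Krt18, the basal layer of stratified epithelia Krt5 with Krt14, and the layers above it Krt1 with Krt10 where the epithelium cornifies or Krt4 with Krt13 in wet mucosa, while the hair follicle has its own set. In the thymic medulla keratins mark the epithelial cells as such, and products of outer skin, mucosa and hair are among the peripheral-tissue products found there. The genes described here are those with a symbol of Krt followed by a digit, on a probe set with that symbol alone. They numbered 48 of the 18193 genes with such a probe set, 25 of type I and 23 of type II. Of 61 probe sets that met the rule, the 1 with the highest mean log2 intensity over all arrays stood for its gene, so 13 were set aside. By role there were 6 simple, 3 basal, 4 activation, 5 cornifying, 4 mucosal and corneal, 20 hair and inner root sheath, and 6 other keratins.

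The arrays, of Affymetrix make, read RNA of class II high cells of the medullary epithelium of the thymus. These were sorted, thymus by thymus, from male mice aged 3 to 4.5 weeks by the gate CD45-, G8.8+ (an epithelial antibody), Ly51int, MHC class II hi. Mice of 3 inbred backgrounds, labelled B6, BALB (BALB/c) and NOD, carried Aire as wild type (WT) or knockout (KO), Aire being the regulator that lets these cells transcribe genes of peripheral organs. There were 3 WT and 3 KO mice of B6, 4 and 4 of BALB, and 3 and 3 of NOD, 20 arrays in all with 1 thymus each. The labels do not describe the knockout allele. The Aire probe set read 9.31 to 11.45 in WT and 10.53 to 12.04 in KO mice and was higher in KO mice (averaged effect 0.74; limma adjusted p = 0.00104), so it does not check the labels, since its place relative to the deleted part is not known here. Values are log2 of the deposited intensities, and an effect is KO minus WT, so a negative effect is a lower level in KO mice. An effect passed when its Benjamini-Hochberg adjusted p from limma, taken over all 45037 probe sets, was under 0.05. Probe sets differ in brightness, so levels are compared between mice for 1 gene and never between genes.

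The array medians ran from 86.3 to 90.9 intensity units. B6 WT mouse 2 and B6 KO mice 2 and 3 stood apart by a low Gapdh 3' minus 5' signal. They read 1.90, 1.68 and 1.84 on the log2 scale, where all the other arrays lay between 2.15 and 3.76. The highest was that of B6 WT mouse 1, at 3.76, with BALB WT mouse 4 next at 3.04. B6 WT mouse 1 was kept where the 3 B6 arrays that stood apart are left out below. B6 KO mice 2 and 3 were the most alike of all pairs of arrays. Medullary markers were bright on every array, with a mean log2 over 8 markers, Aire among them, between 10.74 and 11.41. The 8 measured haematopoietic markers averaged 7.10 to 8.64, highest in NOD WT mice 2 and 3, so such cells cannot be called absent despite the CD45 gate. Between KO and WT mice 3 of 8 medullary markers rose and 0 fell. Those that rose were Cd80, H2-Ab1 and Aire itself, with the limit on its probe set given above. Of 6 cortical markers 1 fell and 2 rose. Of the other marker lists, 1 of 8 haematopoietic and 1 of 5 tuft cell markers fell and 0 rose, 4 of 6 fibroblast markers fell and 2 rose, and 1 of 4 endothelial markers rose, where 10.1% of all probe sets fell and 10.5% rose. The mean over the fibroblast list was 7.36 to 7.62 in B6 WT and 7.13 to 7.51 in B6 KO mice, 7.29 to 7.51 and 7.03 to 7.34 in BALB, and 7.42 to 7.56 and 7.10 to 7.27 in NOD. The part of these cells in the keratin results was not tested. In sorted bulk cells, fewer cells of a kind and less RNA per cell cannot be told apart.

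The stretch before the transcription start is shown for a few members on which the results turn: Krt73, Krt10, Krt12 and Krt76, which fell without Aire, Krt20 and Krt79, whose effect depended on the strain, and Krt18, which did not pass. Sequences are the 120 bases before the start as given by RefSeq (GRCm38.p6), 5′ to 3′ on the gene's strand, and capitals mark the letters TATAAA, the core of the TATA box.
Krt73, chr15:101802361-101802480, - strand: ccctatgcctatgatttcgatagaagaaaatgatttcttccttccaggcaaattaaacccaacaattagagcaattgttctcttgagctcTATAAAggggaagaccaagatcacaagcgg
Krt10, chr11:99389365-99389484, - strand: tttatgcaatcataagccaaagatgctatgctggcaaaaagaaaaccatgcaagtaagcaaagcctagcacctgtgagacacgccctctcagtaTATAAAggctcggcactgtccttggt
Krt12, chr11:99422260-99422379, - strand: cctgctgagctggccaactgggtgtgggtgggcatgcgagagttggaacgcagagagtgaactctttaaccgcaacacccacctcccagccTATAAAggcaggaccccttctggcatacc
Krt76, chr15:101892921-101893040, - strand: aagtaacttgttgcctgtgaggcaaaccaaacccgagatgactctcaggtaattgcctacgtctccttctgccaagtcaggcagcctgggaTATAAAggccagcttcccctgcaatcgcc
Krt20, chr11:99438154-99438273, - strand: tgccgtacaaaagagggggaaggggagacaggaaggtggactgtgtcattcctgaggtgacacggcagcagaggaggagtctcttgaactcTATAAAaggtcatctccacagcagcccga
Krt79, chr15:101940325-101940444, - strand: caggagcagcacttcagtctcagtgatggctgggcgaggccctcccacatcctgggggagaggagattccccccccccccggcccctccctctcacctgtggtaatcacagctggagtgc
Krt18, chr15:102028096-102028215, + strand: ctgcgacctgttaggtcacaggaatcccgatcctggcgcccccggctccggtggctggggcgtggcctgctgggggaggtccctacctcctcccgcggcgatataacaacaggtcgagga
RefSeq promoters, 250 bases before to 50 after the start, were at hand for 32 of the 48 genes. TATAAA on either strand was found for 18 of these 32, in 54.5% of their 33 promoters, against 13.6% of all 32851 promoters of that length. In 11 genes it began between 35 and 25 bases before the start. The letters stood in the promoters of 13 of 22 keratins that fell and of 5 of 10 that did not pass. Krt73, Krt10, Krt12, Krt76 and Krt20 hold them close to the start, and the printed stretches of Krt79 and Krt18 hold none. GGGCGG, the core of a GC box, was present on either strand in 6.06% of the keratin promoters against 35.7% of all, in Krt7 and Krt75. Such matches describe letters, not sites in use.

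Without Aire the keratin family fell broadly. Averaged over the strains 35 of the 48 keratins (72.9%) were lower in KO mice and 0 were higher (limma, adjusted p under 0.05), where 10.1% of all probe sets were lower and 10.5% higher. The median effect was -0.41 on the log2 scale over the 48 genes and 0.01 over all genes with a probe set. Falls of 2-fold or more were seen for 13 keratins, against 2.14% of all probe sets. Each role held falling members, namely 4 of 6 simple, 3 of 3 basal, 3 of 4 activation, 4 of 5 cornifying, 3 of 4 mucosal and corneal, 16 of 20 hair and inner root sheath, and 2 of 6 other keratins. In 8 genes no KO mouse reached the lowest WT mouse of its own background in any of the 3 strains (Krt4, Krt12, Krt15, Krt16, Krt25, Krt73, Krt76 and Krt81), as did 3.17% of all probe sets, and 0 keratins showed the opposite, against 1.37%. With each of the 20 mice left out in turn 30 to 35 keratins passed. In those fits 16.9% to 21.6% of all probe sets were called, against 20.6% with all mice.

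**Figure D1:**
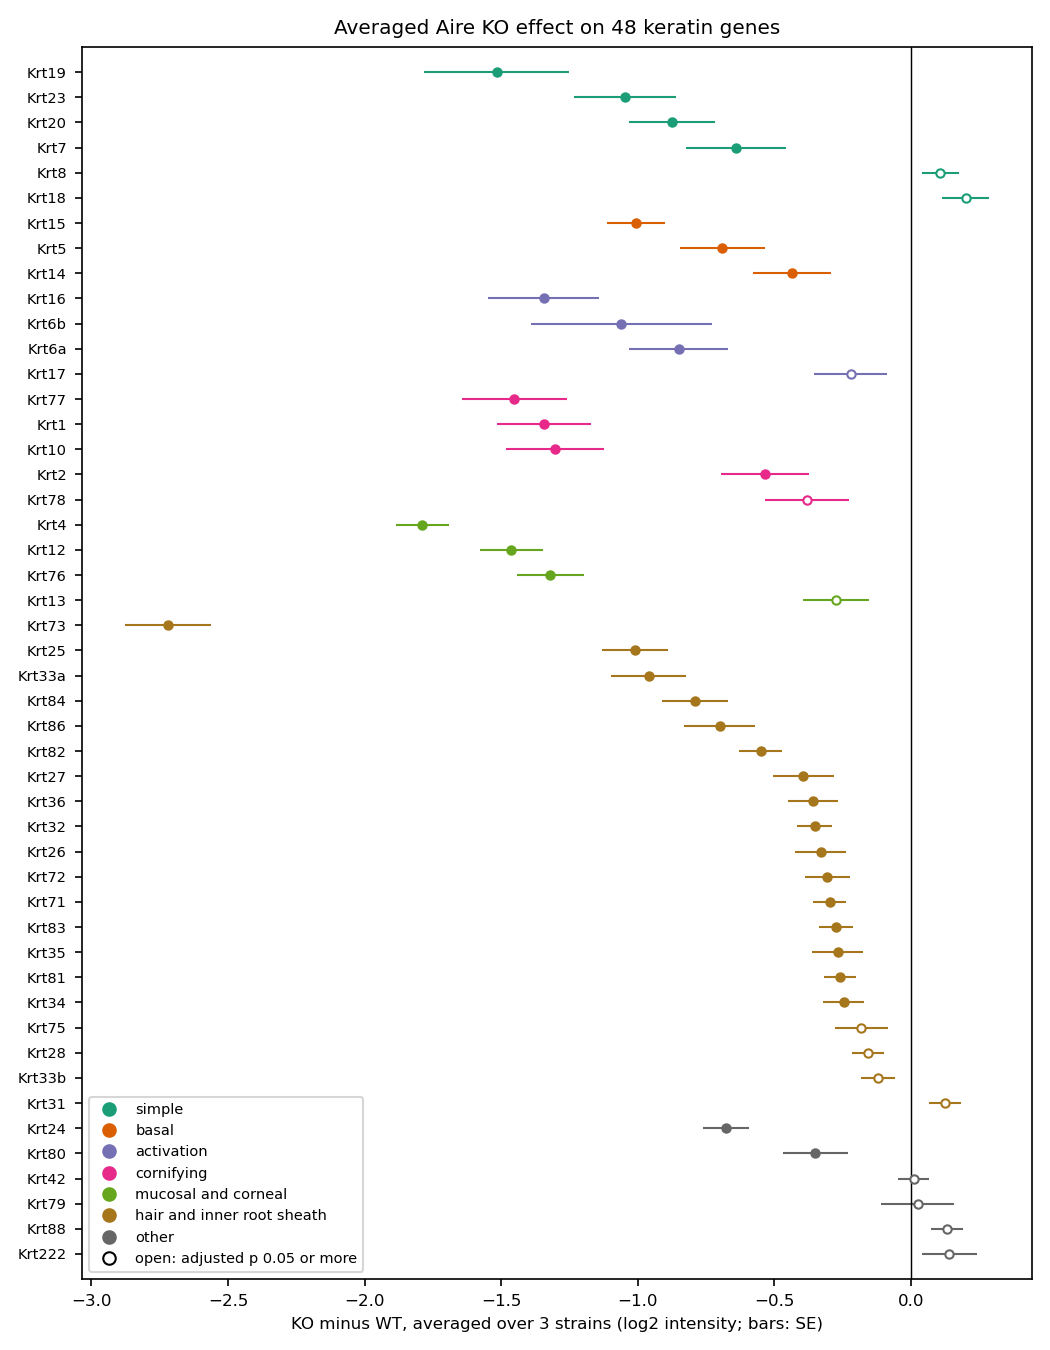
Averaged KO minus WT effect (log2 intensity, x axis) with its SE for the 48 keratin genes, in colours by role, filled where the adjusted p is under 0.05. All 35 filled points lie left of 0, Krt73 lies farthest at -2.72, and Krt8 and Krt18 lie right of 0 with open points.

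Among the simple keratins the main pair did not move with the others. Krt8 read 12.71, 12.87 and 12.89 in B6 WT and 12.69, 12.95 and 13.11 in B6 KO mice. BALB levels of Krt8 were 12.45, 12.50, 12.79 and 12.66 (WT) and 12.71, 12.71, 12.56 and 12.72 (KO), and NOD levels 12.22, 12.0 and 12.24 (WT) and 12.33, 12.17 and 12.42 (KO). For Krt8 the genotypes overlapped in B6, BALB and NOD. The averaged effect of Krt8 was 0.11 ± 0.07 (SE; 95% interval -0.03 to 0.25; limma adjusted p = 0.27). WT levels of Krt18 were 11.40, 12.06 and 11.83 (B6), 11.30, 11.52, 11.62 and 11.68 (BALB) and 11.02, 10.81 and 10.97 (NOD). KO levels of Krt18 were 11.89, 12.38 and 12.25 (B6), 11.57, 11.71, 11.44 and 11.65 (BALB) and 11.11, 11.03 and 11.06 (NOD). For Krt18 each KO mouse was above every WT mouse in NOD and the genotypes overlapped in B6 and BALB. Its averaged effect was 0.20 ± 0.08 (95% interval 0.02 to 0.38; limma adjusted p = 0.107). With same-numbered mice paired, the same 0.20 of Krt18 passed (limma adjusted p = 0.013), and it also passed with array weights, without B6 WT mouse 2 and without B6 KO mouse 1.

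The simple keratins Krt19, Krt23 and Krt7 were lower. Krt19, a keratin of ductal epithelium, fell most in this class, by 1.52 on the log2 scale, or 2.86-fold (SE 0.27; limma adjusted p = 0.000415). B6 mice had Krt19 at 8.14, 9.39 and 8.90 with Aire and at 6.13, 7.78 and 7.14 without it. BALB mice had Krt19 at 8.14, 8.20, 8.84 and 9.42 with Aire and 6.65, 7.06, 6.63 and 8.45 without, and NOD mice at 7.40, 8.07 and 7.81 and 6.05, 6.75 and 6.56. For Krt19 each KO mouse was below every WT mouse in B6 and NOD and the genotypes overlapped in BALB. BALB KO mouse 4 alone lay within the range of its WT mice. Krt23 read 8.05, 9.21 and 8.75 in B6 WT and 6.70, 7.64 and 7.44 in B6 KO mice. BALB levels of Krt23 were 7.86, 7.91, 8.40 and 8.57 (WT) and 6.80, 7.11, 7.0 and 7.98 (KO), and NOD levels 6.84, 6.55 and 7.24 (WT) and 5.68, 6.35 and 6.30 (KO). For Krt23 each KO mouse was below every WT mouse in B6 and NOD and the genotypes overlapped in BALB. Here too BALB KO mouse 4 was the overlapping mouse, and the effect of Krt23 was -1.05 ± 0.19 (limma adjusted p = 0.000486). WT levels of Krt7 were 8.92, 9.92 and 9.66 (B6), 9.66, 10.07, 9.95 and 8.86 (BALB) and 9.54, 9.56 and 9.23 (NOD). KO levels of Krt7 were 8.18, 9.40 and 9.12 (B6), 9.03, 9.51, 8.79 and 8.60 (BALB) and 8.80, 8.67 and 8.84 (NOD). For Krt7 each KO mouse was below every WT mouse in NOD and the genotypes overlapped in B6 and BALB. Krt7, the type II keratin of ducts, had an effect of -0.64 ± 0.18 (limma adjusted p = 0.0191), and 6 of 10 KO mice read lower than every WT mouse of the same background. Within each of the 5 sets of WT and KO mice of 1 strain and 1 run of sample codes the difference was negative for Krt19 (-1.69 to -1.28), Krt23 (-1.44 to -0.57) and Krt7 (-0.74 to -0.53). Krt20, a keratin of intestinal epithelium, differed between strains and is described with them.

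All 3 basal keratins fell. Krt15, a keratin of the basal layer and of the stem cells of the hair bulge, fell by 1.01, or 2.01-fold (SE 0.11; limma adjusted p = 1.49e-06). B6 mice had Krt15 at 7.84, 8.54 and 7.94 with Aire and at 6.42, 6.94 and 6.86 without it. BALB mice had Krt15 at 7.35, 7.85, 7.28 and 7.55 with Aire and 6.11, 6.40, 5.92 and 6.40 without, and NOD mice at 7.32, 7.13 and 7.01 and 6.81, 6.75 and 6.84. For Krt15 each KO mouse was below every WT mouse in B6, BALB and NOD. The gap was narrowest in NOD, where the effect alone was -0.36 ± 0.19 and did not pass (limma adjusted p = 0.471). The strain difference of the effect of Krt15 had an adjusted p of 0.2, and of 0.00368 with the mice paired. The paired test blocks on mouse number in B6 too, where the numbers were not counted as pairs. Of all probe sets 2.85% passed it, against 0.435% without pairing. Krt5 read 9.21, 9.80 and 9.45 in B6 WT and 8.13, 9.06 and 8.80 in B6 KO mice. BALB levels of Krt5 were 9.16, 9.61, 10.20 and 9.94 (WT) and 8.61, 9.30, 9.30 and 9.59 (KO), and NOD levels 9.65, 10.17 and 9.76 (WT) and 8.92, 9.29 and 9.19 (KO). For Krt5 each KO mouse was below every WT mouse in B6 and NOD and the genotypes overlapped in BALB. Krt5, which with Krt14 marks basal cells and much of the thymic medulla, had an effect of -0.69 ± 0.16 (limma adjusted p = 0.00395). WT levels of Krt14 were 9.88, 10.69 and 10.54 (B6), 11.20, 11.53, 11.33 and 11.06 (BALB) and 11.20, 10.88 and 10.84 (NOD). KO levels of Krt14 were 9.39, 10.50 and 10.12 (B6), 10.53, 11.14, 10.68 and 10.84 (BALB) and 10.80, 10.18 and 10.56 (NOD). For Krt14 each KO mouse was below every WT mouse in NOD and the genotypes overlapped in B6 and BALB. The effect of Krt14 was -0.44 ± 0.14 (limma adjusted p = 0.0366) and lost its call in 11 of 32 alternatives, with adjusted p up to 0.0854, each leaving out 1 mouse (B6 WT 2 or 3 or KO 1, BALB WT 2 or 3 or KO 1 or 3, NOD WT 1 or 2 or KO 2 or 3). The 2 other probe sets of Krt14 read -0.38 and -0.23 and did not pass.

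The activation keratins, which epidermis makes in wounds, in palms and soles and in the companion cells of hair and nail, fell in 3 of 4 cases. B6 mice had Krt16 at 9.72, 11.05 and 10.77 with Aire and at 7.98, 9.44 and 9.06 without it. BALB mice had Krt16 at 10.22, 10.52, 10.89 and 11.37 with Aire and 9.0, 9.26, 9.23 and 9.95 without, and NOD mice at 9.25, 9.37 and 9.50 and 8.61, 8.39 and 8.25. For Krt16 each KO mouse was below every WT mouse in B6, BALB and NOD. Krt16 fell by 1.34, or 2.54-fold (SE 0.20; limma adjusted p = 9.38e-05). Krt6b read 10.23, 7.88 and 10.14 in B6 WT and 9.16, 7.44 and 7.31 in B6 KO mice. BALB levels of Krt6b were 8.88, 9.13, 8.72 and 9.44 (WT) and 8.22, 7.05, 7.46 and 9.21 (KO), and NOD levels 9.68, 9.45 and 10.23 (WT) and 8.86, 8.95 and 9.53 (KO). For Krt6b the genotypes overlapped in B6, BALB and NOD. Krt6b varied widely among mice of 1 group, from 7.88 to 10.23 in B6 WT mice, and its effect of -1.06 ± 0.33 (limma adjusted p = 0.0295) lost its call in 9 of 32 alternatives, at adjusted p up to 0.0687. These merged B6 KO mice 2 and 3 or left out 1 mouse (B6 WT 1 or 3 or KO 2 or 3, BALB KO 3, NOD WT 3 or KO 1 or 2). WT levels of Krt6a were 7.84, 7.82 and 8.71 (B6), 7.65, 7.35, 7.43 and 7.94 (BALB) and 7.33, 8.15 and 8.37 (NOD). KO levels of Krt6a were 6.71, 6.99 and 6.66 (B6), 7.09, 6.33, 7.07 and 7.70 (BALB) and 6.79, 7.42 and 7.61 (NOD). For Krt6a each KO mouse was below every WT mouse in B6 and the genotypes overlapped in BALB and NOD. Krt6a had an effect of -0.85 ± 0.18 (limma adjusted p = 0.0023). Its sequence is close to that of Krt6b, so signal can be shared, and its 2 other probe sets read 0.03 and -0.02 and did not pass. Krt17, the remaining member, had an effect of -0.22 ± 0.13 and did not pass (95% interval -0.50 to 0.06; limma adjusted p = 0.255; with the mice paired, adjusted p = 0.0328).

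**Figure D2:**
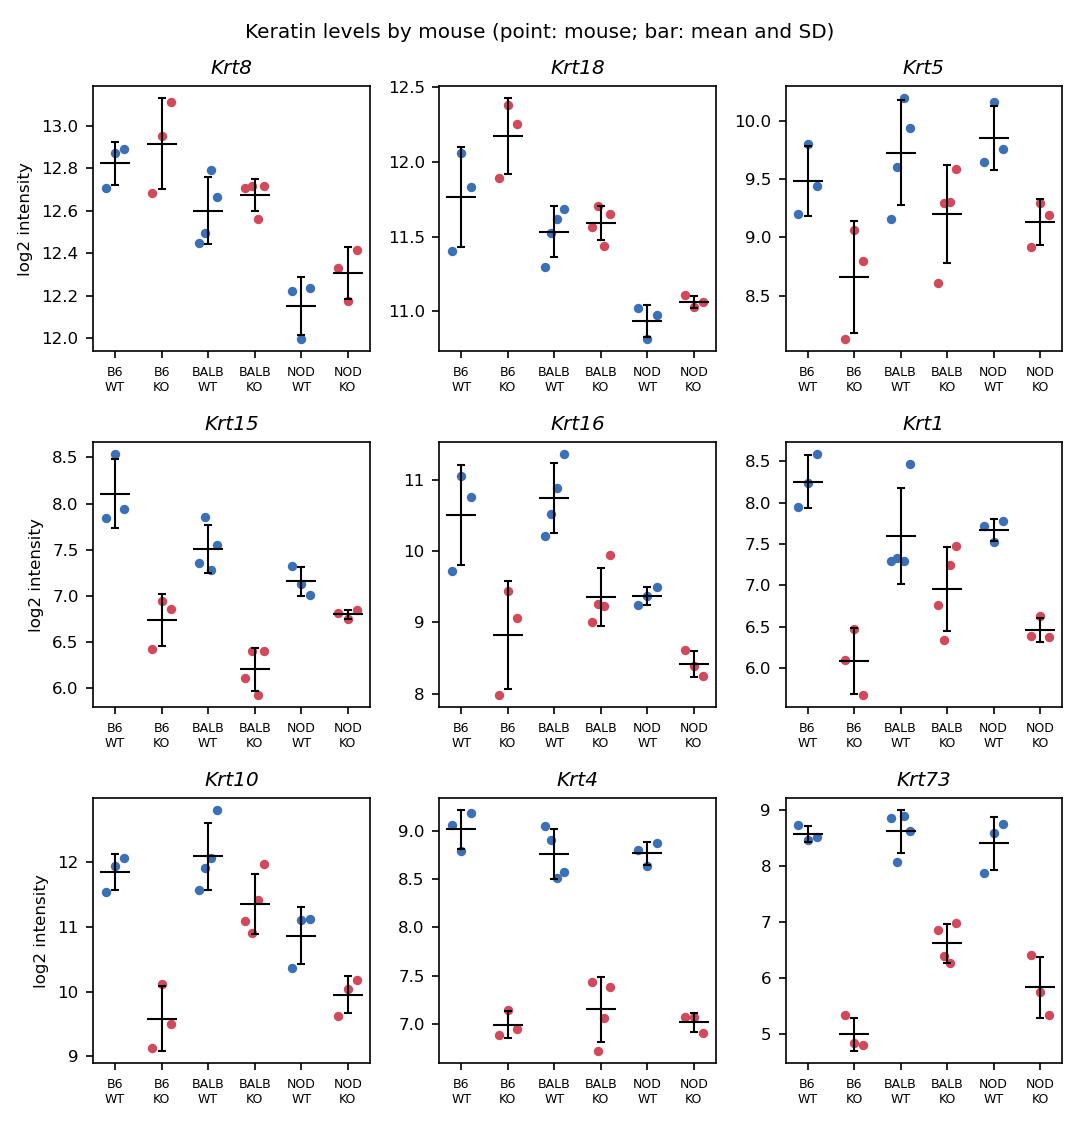
Log2 intensity (y axis, scaled per gene) of 9 keratins in each mouse, with group mean and SD, for WT (blue) and KO (red) mice of the 3 strains. Krt8 and Krt18 are lowest in NOD in both genotypes, and Krt8 overlaps between genotypes in each strain, while for Krt4, Krt15, Krt16 and Krt73 all KO mice lie below all WT mice of their strain.

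Cornifying keratins fell in 4 of 5 cases, with estimates that were largest in B6. B6 mice had Krt1 at 7.94, 8.24 and 8.59 with Aire and at 6.10, 6.47 and 5.67 without it. BALB mice had Krt1 at 7.29, 7.33, 7.29 and 8.47 with Aire and 6.77, 6.33, 7.25 and 7.47 without, and NOD mice at 7.71, 7.52 and 7.78 and 6.39, 6.63 and 6.37. For Krt1 each KO mouse was below every WT mouse in B6 and NOD and the genotypes overlapped in BALB. Krt1, the type II chain of the spinous layer of skin, fell by 1.34, or 2.54-fold (SE 0.17; limma adjusted p = 1.35e-05). Krt10 read 11.53, 11.94 and 12.06 in B6 WT and 9.13, 10.12 and 9.49 in B6 KO mice. BALB levels of Krt10 were 11.57, 11.91, 12.07 and 12.80 (WT) and 11.09, 10.91, 11.41 and 11.97 (KO), and NOD levels 10.36, 11.11 and 11.12 (WT) and 9.63, 10.05 and 10.17 (KO). For Krt10 each KO mouse was below every WT mouse in B6 and NOD and the genotypes overlapped in BALB. Krt10, the type I partner of Krt1, had an effect of -1.30 ± 0.18 (limma adjusted p = 3.34e-05). For Krt1 and Krt10 9 of 10 KO mice read lower than every WT mouse of the same background and BALB KO mouse 4 overlapped. WT levels of Krt77 were 10.11, 10.56 and 10.11 (B6), 9.82, 10.17, 10.30 and 10.97 (BALB) and 9.09, 8.90 and 8.72 (NOD). KO levels of Krt77 were 7.93, 8.95 and 8.04 (B6), 9.15, 9.04, 9.81 and 10.52 (BALB) and 7.40, 7.24 and 6.93 (NOD). For Krt77 each KO mouse was below every WT mouse in B6 and NOD and the genotypes overlapped in BALB. Krt77, a type II keratin of suprabasal skin and of sweat ducts, changed by -1.45 ± 0.19 (limma adjusted p = 2.05e-05), with the same 1 mouse overlapping. By strain the effects of Krt1, Krt10 and Krt77 were -2.18, -2.26 and -1.96 (B6), -0.64, -0.74 and -0.68 (BALB), and -1.21, -0.91 and -1.71 (NOD). In BALB none of the 3 passed (limma adjusted p = 0.191, 0.144 and 0.218), and with the mice paired all 3 did (adjusted p = 0.0299, 0.000742 and 0.0011). The test of the strain difference gave adjusted p of 0.349, 0.357 and 0.738, and of 0.0237, 0.00122 and 0.00264 with the mice paired. The limits of the paired test given for Krt15 hold here too. B6 mice had Krt2 at 5.18, 5.19 and 5.40 with Aire and at 4.68, 4.39 and 4.41 without it. BALB mice had Krt2 at 6.71, 5.30, 6.17 and 6.07 with Aire and 6.01, 5.09, 5.30 and 5.94 without, and NOD mice at 5.24, 5.34 and 5.37 and 4.49, 5.07 and 5.33. For Krt2 each KO mouse was below every WT mouse in B6 and the genotypes overlapped in BALB and NOD. Krt2, of the upper epidermis, had an effect of -0.53 ± 0.16 (limma adjusted p = 0.0242), lost without the 3 B6 arrays that stood apart (adjusted p = 0.137), without NOD KO mouse 1 and with 32 units added before the log.

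Keratins of wet mucosa and cornea fell in 3 of 4 cases, each in every strain. Krt4 read 9.06, 8.79 and 9.18 in B6 WT and 6.89, 7.15 and 6.95 in B6 KO mice. BALB levels of Krt4 were 9.05, 8.91, 8.51 and 8.57 (WT) and 7.44, 6.72, 7.07 and 7.39 (KO), and NOD levels 8.80, 8.63 and 8.87 (WT) and 7.07, 7.08 and 6.91 (KO). For Krt4 each KO mouse was below every WT mouse in B6, BALB and NOD. Krt4, the type II keratin of the oesophagus and mouth, fell by 1.79, or 3.45-fold (SE 0.10; limma adjusted p = 3.26e-10), with effects of -2.01, -1.61 and -1.75 in B6, BALB and NOD. WT levels of Krt76 were 8.71, 9.29 and 8.82 (B6), 8.61, 8.48, 8.09 and 7.81 (BALB) and 8.47, 8.28 and 8.12 (NOD). KO levels of Krt76 were 6.86, 7.57 and 7.47 (B6), 6.98, 7.27, 6.84 and 7.14 (BALB) and 7.45, 6.89 and 7.13 (NOD). For Krt76 each KO mouse was below every WT mouse in B6, BALB and NOD. Krt76, a keratin of the palate, had an effect of -1.32 ± 0.12 (limma adjusted p = 3.56e-07). Krt4, Krt76 and Krt12, the corneal keratin described below with the strains, passed in each strain alone. The call of Krt12 in NOD, however, was lost whenever any 1 NOD mouse was left out. These were the 6 of 33 alternatives that lost it, at adjusted p up to 0.136. Another probe set of Krt4 read -1.46 and passed too. Krt13, the type I partner of Krt4, was represented by a probe set with an effect of -0.28 ± 0.12 that did not pass (limma adjusted p = 0.116). A second probe set of Krt13 read -1.25 (limma adjusted p = 1.72e-05) and another -0.13 (adjusted p = 0.358), so the value for Krt13 depended on the probe set.

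Of the 20 keratins of the hair shaft and inner root sheath 16 fell, mostly by little. Krt73, a type II keratin of the inner root sheath, had the largest effect of the family, a fall of 2.72 or 6.59-fold (SE 0.16; limma adjusted p = 7.06e-10). B6 mice had Krt73 at 8.73, 8.47 and 8.52 with Aire and at 5.33, 4.83 and 4.79 without it. BALB mice had Krt73 at 8.86, 8.07, 8.90 and 8.63 with Aire and 6.84, 6.38, 6.26 and 6.98 without, and NOD mice at 7.87, 8.58 and 8.75 and 6.41, 5.75 and 5.33. For Krt73 each KO mouse was below every WT mouse in B6, BALB and NOD. The KO mice were far below the WT mice in each strain, and by their mean lowest in B6. Krt25 read 6.57, 6.61 and 6.81 in B6 WT and 5.28, 5.55 and 5.60 in B6 KO mice. BALB levels of Krt25 were 6.31, 6.83, 6.50 and 6.03 (WT) and 5.52, 5.23, 5.49 and 5.23 (KO), and NOD levels 5.76, 6.09 and 6.74 (WT) and 5.29, 5.24 and 5.70 (KO). For Krt25 each KO mouse was below every WT mouse in B6, BALB and NOD. Krt25, a type I keratin of the same sheath, had an effect of -1.01 ± 0.12 (limma adjusted p = 6.22e-06). The hair shaft keratins Krt33a and Krt86 followed. WT levels of Krt33a were 6.65, 5.88 and 5.68 (B6), 6.09, 6.93, 6.77 and 6.06 (BALB) and 5.23, 5.91 and 5.82 (NOD). KO levels of Krt33a were 5.04, 4.93 and 4.99 (B6), 5.20, 5.12, 5.10 and 5.05 (BALB) and 5.02, 5.42 and 5.19 (NOD). For Krt33a each KO mouse was below every WT mouse in B6 and BALB and the genotypes overlapped in NOD. The effect of Krt33a was -0.96 ± 0.14 (limma adjusted p = 5.11e-05) and passed in BALB, in B6 (lost in 3 of 32 alternatives, at adjusted p up to 0.196) but not in NOD (-0.45; adjusted p = 0.497), a difference that was itself not past the threshold (adjusted p = 0.901). B6 mice had Krt86 at 7.95, 7.18 and 8.26 with Aire and at 7.34, 6.57 and 6.70 without it. BALB mice had Krt86 at 7.71, 7.39, 7.75 and 7.36 with Aire and 7.22, 7.29, 7.24 and 7.18 without, and NOD mice at 8.03, 7.69 and 7.95 and 7.22, 6.70 and 7.21. For Krt86 each KO mouse was below every WT mouse in BALB and NOD and the genotypes overlapped in B6. Krt86 changed by -0.70 ± 0.13 (limma adjusted p = 0.000695), and 9 of 10 KO mice read lower than every WT mouse of the same background. Krt84 read 7.50, 7.04 and 7.65 in B6 WT and 6.72, 6.12 and 6.03 in B6 KO mice. BALB levels of Krt84 were 7.35, 7.21, 6.90 and 7.01 (WT) and 6.33, 6.19, 6.32 and 6.48 (KO), and NOD levels 6.74, 7.14 and 7.46 (WT) and 6.59, 7.0 and 6.33 (KO). For Krt84 each KO mouse was below every WT mouse in B6 and BALB and the genotypes overlapped in NOD. Krt84, known from nail and tongue papillae, had an effect of -0.79 ± 0.12 (limma adjusted p = 0.000102). WT levels of Krt82 were 5.30, 5.39 and 5.07 (B6), 5.15, 4.89, 4.40 and 4.72 (BALB) and 4.35, 4.51 and 4.59 (NOD). KO levels of Krt82 were 4.40, 4.42 and 4.39 (B6), 4.46, 4.18, 4.23 and 4.35 (BALB) and 4.20, 4.15 and 4.14 (NOD). For Krt82 each KO mouse was below every WT mouse in B6 and NOD and the genotypes overlapped in BALB. Krt82, of the hair cuticle, had an effect of -0.55 ± 0.08 (limma adjusted p = 5.65e-05). The other 10 that fell (Krt26, Krt27, Krt32, Krt34, Krt35, Krt36, Krt71, Krt72, Krt81 and Krt83) had effects from -0.39 to -0.25. The effects of Krt75, Krt28, Krt33b and Krt31 were -0.18, -0.16, -0.12 and 0.12 and did not pass. The means of 11 of the 48 keratins lay below the median over all probe sets, 6.50. On the log2(intensity + 32) scale, which damps low values, 32 of the 48 keratins passed, all 32 among the 35 that fell on the log2 scale. On that scale 20.5% of all probe sets were called, against 20.6% on the log2 scale.

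Among the 6 other keratins 2 fell. B6 mice had Krt24 at 7.43, 7.47 and 7.56 with Aire and at 6.61, 7.03 and 6.85 without it. BALB mice had Krt24 at 6.53, 6.60, 6.30 and 6.22 with Aire and 5.70, 6.24, 6.21 and 5.75 without, and NOD mice at 7.43, 7.56 and 7.29 and 6.45, 6.57 and 6.43. For Krt24 each KO mouse was below every WT mouse in B6 and NOD and the genotypes overlapped in BALB. Krt24, a type I keratin of keratinocytes, had an effect of -0.68 ± 0.08 (limma adjusted p = 1.03e-05). Within each genotype the BALB mice stood below those of B6 and NOD. Krt80, of differentiating epithelia, had an effect of -0.35 ± 0.12 (limma adjusted p = 0.0461), and the effects of Krt42, Krt88 and Krt222 were 0.01, 0.13 and 0.14 and did not pass. Krt79 is described with the strains.

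Partner chains were set side by side in 5 pairs. Without pairing or array weights, Krt8 and Krt18 did not pass in any strain, with effects from 0.08 to 0.15 and from 0.06 to 0.41. Krt5 and Krt14 had -0.69 and -0.44 averaged over strains, Krt1 and Krt10 -1.34 and -1.30, and Krt6a and Krt16 -0.85 and -1.34. Both partners passed in these 3 pairs, with the limits on Krt14 and on the other probe sets of Krt6a given above. Krt4 and Krt13 had -1.79 and -0.28, with the limit on Krt13 given above. Whether partners differed from each other was not tested.

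**Figure D3:**
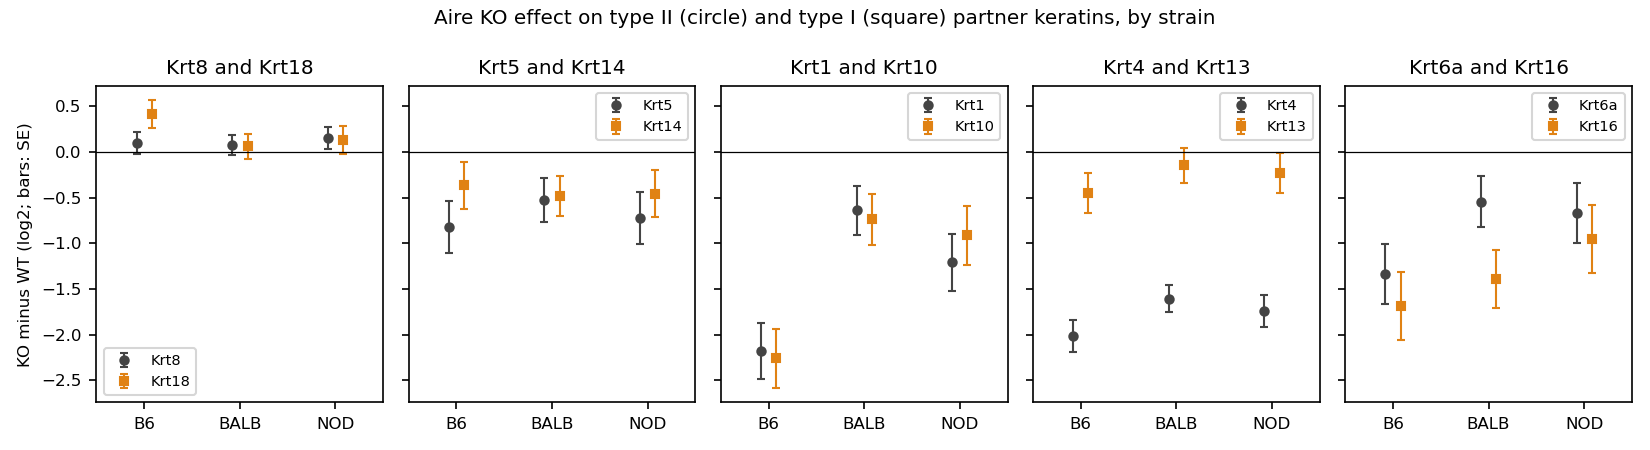
KO minus WT effect with SE (log2, y axis) in each strain for the type II (circles) and type I (squares) chain of 5 partner pairs. Krt1 and Krt10 lie close together in each strain and lowest in B6, Krt8 and Krt18 lie above 0, and Krt4 lies below Krt13.

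Taken strain by strain, 23 keratins passed as lower in B6, 12 in BALB and 11 in NOD, against 5.54%, 4.26% and 2.81% of all probe sets. As higher, 0 keratins passed in B6, 0 in BALB and 1 in NOD, Krt79, against 3.08%, 2.57% and 1.42% of all probe sets. The strain comparisons rest on few mice. Without the 3 B6 arrays that stood apart 10 keratins passed in B6, all of them among the 23, and that fit holds 1 B6 KO mouse, assumed to vary like the other groups. With same-numbered mice paired, 29 were lower in BALB (where 8.65% of all probe sets were lower), and 20 lower and 2 higher in NOD (6.47% lower). The added higher call was that of Krt78. In NOD the count fell from 12 to 7 without WT mouse 2, WT mouse 3, KO mouse 1 or KO mouse 2. The share of all probe sets called fell too, from 4.23% to between 2.62% and 2.82%.

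For 3 keratins the effect itself differed between the strains (F test in limma, adjusted p under 0.05), where 0.435% of all probe sets did. Without BALB WT mouse 4, 5 keratins passed this test (0.475% of all probe sets), and without B6 KO mouse 2 only 2 did (0.26%). Krt20, an intestinal keratin, fell in NOD and, without pairing or array weights, did not pass in either other strain. Krt20 read 11.44, 10.91 and 11.67 in B6 WT and 11.08, 10.24 and 10.60 in B6 KO mice. BALB levels of Krt20 were 10.76, 10.96, 10.34 and 10.45 (WT) and 10.85, 10.79, 10.70 and 11.51 (KO), and NOD levels 10.59, 10.43 and 10.14 (WT) and 8.73, 7.70 and 7.95 (KO). For Krt20 each KO mouse was below every WT mouse in NOD and the genotypes overlapped in B6 and BALB. The effect of Krt20 was -2.26 ± 0.28 in NOD (limma adjusted p = 4.97e-05), -0.70 ± 0.28 in B6 (0.152) and 0.34 ± 0.24 in BALB (0.51), and the strain difference had an adjusted p of 0.00753. NOD differed from BALB by -2.60 ± 0.37 (adjusted p = 0.00629) and from B6 by -1.56 ± 0.40 (adjusted p = 0.201). Averaged over strains it was -0.88 ± 0.16 (limma adjusted p = 0.000478).

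Krt79, a type II keratin of the hair follicle opening and sebaceous duct, went the other way in NOD. WT levels of Krt79 were 10.92, 11.10 and 11.60 (B6), 11.13, 11.40, 11.47 and 12.12 (BALB) and 10.79, 10.68 and 10.49 (NOD). KO levels of Krt79 were 10.46, 10.85 and 10.51 (B6), 10.56, 10.96, 10.68 and 11.43 (BALB) and 12.07, 11.94 and 11.82 (NOD). For Krt79 each KO mouse was below every WT mouse in B6, each KO mouse was above every WT mouse in NOD and the genotypes overlapped in BALB. In BALB it was KO mouse 4 that overlapped. The effect was 1.29 ± 0.24 in NOD (2.45-fold higher; limma adjusted p = 0.00271), -0.60 ± 0.24 in B6 (adjusted p = 0.15) and -0.62 ± 0.21 in BALB (adjusted p = 0.0891). With the mice paired, the BALB effect passed as lower (adjusted p = 0.00205). The strain difference had an adjusted p of 0.0105, and NOD differed from B6 by 1.90 ± 0.34 and from BALB by 1.92 ± 0.32 (adjusted p = 0.0258 and 0.0141). The average over the strains was 0.02 ± 0.13.

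Krt78, the neighbour of Krt79 in the genome and a keratin of suprabasal epithelium, also had its highest estimate in NOD. B6 mice had Krt78 at 10.38, 10.03 and 10.49 with Aire and at 9.13, 9.09 and 8.90 without it. BALB mice had Krt78 at 9.45, 9.59, 10.11 and 10.70 with Aire and 9.13, 9.12, 9.49 and 10.11 without, and NOD mice at 9.52, 9.36 and 9.37 and 10.37, 9.89 and 9.85. For Krt78 each KO mouse was below every WT mouse in B6, each KO mouse was above every WT mouse in NOD and the genotypes overlapped in BALB. Its effects were -1.26 ± 0.28, -0.50 ± 0.24 and 0.62 ± 0.28 in B6, BALB and NOD (limma adjusted p = 0.00648, 0.272 and 0.334), and the B6 call was lost without the 3 B6 arrays that stood apart (adjusted p = 0.167). The strain difference of Krt78 did not pass (adjusted p = 0.099). With the mice paired it passed (adjusted p = 0.000293, with the limits of the paired test given for Krt15). It also passed with array weights, with the code run as a block and without BALB WT mouse 4 or BALB KO mouse 4. With pairing so did the BALB, NOD and averaged effects of Krt78 (adjusted p = 0.00479, 0.00397 and 0.000575). Krt12, the keratin of the corneal epithelium, fell in each strain and most in B6. Krt12 read 8.66, 7.88 and 8.57 in B6 WT and 6.13, 5.60 and 5.78 in B6 KO mice. BALB levels of Krt12 were 8.32, 8.31, 8.28 and 7.86 (WT) and 6.91, 7.61, 6.98 and 7.0 (KO), and NOD levels 8.96, 8.80 and 8.85 (WT) and 8.01, 8.01 and 8.23 (KO). For Krt12 each KO mouse was below every WT mouse in B6, BALB and NOD. The effect of Krt12 was -1.46 ± 0.11 averaged over strains (limma adjusted p = 3.38e-08), and -2.53 ± 0.21, -1.07 ± 0.18 and -0.79 ± 0.21 in B6, BALB and NOD. The B6 effect was larger than that of BALB by 1.46 ± 0.27 and than that of NOD by 1.74 ± 0.29 (adjusted p = 0.0343 and 0.0179; F test adjusted p = 0.0132). This strain difference lost its call without B6 KO mouse 2 or 3 and without the 3 B6 arrays that stood apart, at adjusted p up to 0.0663, and another probe set of Krt12 with an averaged effect of -1.32 did not pass that test (adjusted p = 0.999967).

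**Figure D4:**
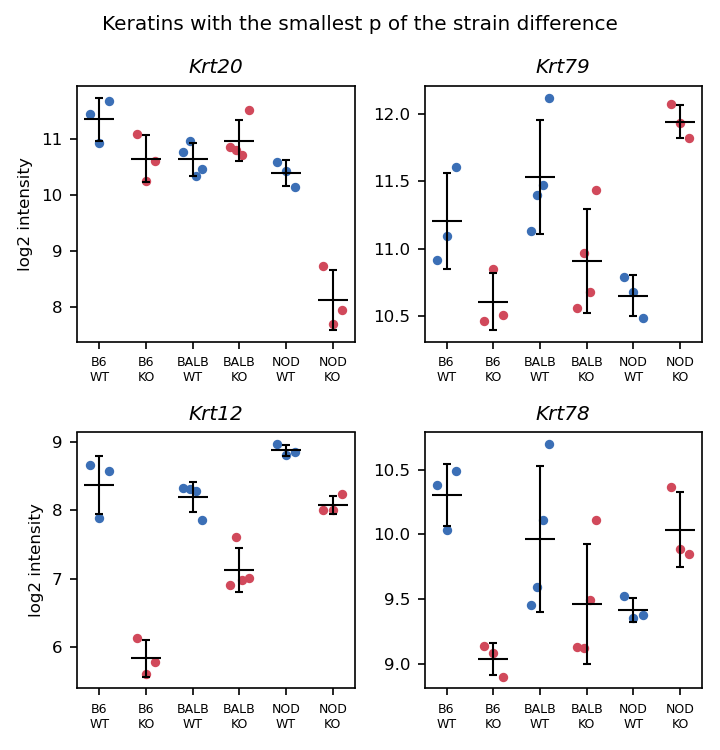
Log2 intensity (y axis, scaled per gene) in each mouse, with group mean and SD, of the 4 keratins with the smallest p of the strain difference of the effect. NOD KO mice are low for Krt20 and high for Krt79 and Krt78, and B6 KO mice are lowest for Krt12.

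With Aire intact the strains already differed in 13 keratins (F test in limma among WT mice; 11.3% of all probe sets passed). The main simple pair was lower in NOD. Krt8 was 12.82 ± 0.10 in B6, 12.60 ± 0.16 in BALB and 12.15 ± 0.14 in NOD (mean ± SD, n = 3, 4 and 3 mice; adjusted p = 0.00315), and its 2 other probe sets passed as well. Krt18 was 11.77 ± 0.33 in B6, 11.53 ± 0.17 in BALB and 10.94 ± 0.11 in NOD (adjusted p = 0.00338), and for both genes every NOD WT mouse lay below every WT mouse of B6 and BALB. Neither passed with the run of sample codes as a block (adjusted p = 0.157 and 0.0591). Krt23 was 8.67 ± 0.59 in B6, 8.19 ± 0.35 in BALB and 6.88 ± 0.35 in NOD (adjusted p = 0.00368). The mean of the tuft cell marker list was also lower in NOD, at 6.63 to 6.75 in NOD WT mice, 7.39 to 7.99 in B6 and 7.55 to 8.39 in BALB. Its marker Pou2f3 did not follow (mean 6.94 in NOD, 7.04 in B6 and 6.84 in BALB), while the others were lowest in NOD. The cornification list was lower in NOD WT mice as well, at 7.93 to 8.43, against 8.60 to 8.97 in B6 and 8.48 to 9.17 in BALB. The medullary list was 10.81 to 10.94 in NOD, 10.92 to 11.22 in B6 and 10.74 to 10.98 in BALB. The part of tuft cells was not tested.

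Krt10, Krt16 and Krt77 were also lower in NOD WT than in BALB WT mice, with differences of -1.22, -1.38 and -1.41 on the log2 scale (limma adjusted p = 0.0208, 0.0219 and 0.0127). The F tests among WT mice of these genes (adjusted p = 0.0283, 0.0283 and 0.0116) lost their call without NOD WT mouse 1 or 2 (Krt10), without BALB WT mouse 3 or 4 or any NOD WT mouse (Krt16), and without NOD WT mouse 3 (Krt77), and those of Krt10 and Krt16 also with only WT arrays. The differences between NOD and BALB were not rerun in this way. Among basal keratins Krt15 was highest in B6 (8.11 ± 0.38 in B6, 7.51 ± 0.26 in BALB and 7.16 ± 0.16 in NOD; adjusted p = 0.00798), and Krt14 lowest in B6 (10.37 ± 0.43 in B6, 11.28 ± 0.20 in BALB and 10.97 ± 0.20 in NOD; adjusted p = 0.0464). Krt15 did not pass with the run of codes as a block (adjusted p = 0.735), and the call of Krt14 was lost in 16 of 32 alternatives, at adjusted p up to 0.184, among them leaving out any BALB or NOD WT mouse but BALB WT mouse 4. The smallest adjusted p was that of Krt24, at 7.49 ± 0.07 in B6, 6.41 ± 0.18 in BALB and 7.43 ± 0.13 in NOD (adjusted p = 4.81e-05), lower in BALB. Krt71, Krt82, Krt79 and Krt222 passed as well (adjusted p = 0.00431, 0.00465, 0.0394 and 0.0114). The call of Krt79 was lost in 12 of 32 alternatives, at adjusted p up to 0.144, among them leaving out any 1 NOD WT mouse, and that of Krt82 with the run of codes as a block and with only WT arrays, at adjusted p up to 0.245. Krt1, Krt4, Krt5 and Krt73 did not pass (adjusted p = 0.266, 0.515, 0.65 and 0.845).

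Keratin genes lie in 2 clusters, type I on chromosome 11 and type II, with the type I gene Krt18 at its end, on chromosome 15. Of the 24 measured members of each cluster 17 fell on chromosome 11 and 18 on chromosome 15. On chromosome 15 all 11 members from Krt6b to Krt4 in gene order passed (Krt6b, Krt6a, Krt5, Krt71, Krt72, Krt73, Krt2, Krt1, Krt77, Krt76 and Krt4), with effects from -2.72 to -0.30. Beside it the last 4 members, Krt79, Krt78, Krt8 and Krt18, did not pass in the average, with 0.02, -0.38, 0.11 and 0.20. On chromosome 11 members that fell and members that did not were interspersed, for example Krt33a (-0.96) beside Krt33b (-0.12), and Krt16 (-1.34) beside Krt17 (-0.22). Gene order is that of RefSeq and was used for neighbours alone.

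**Figure D5:**
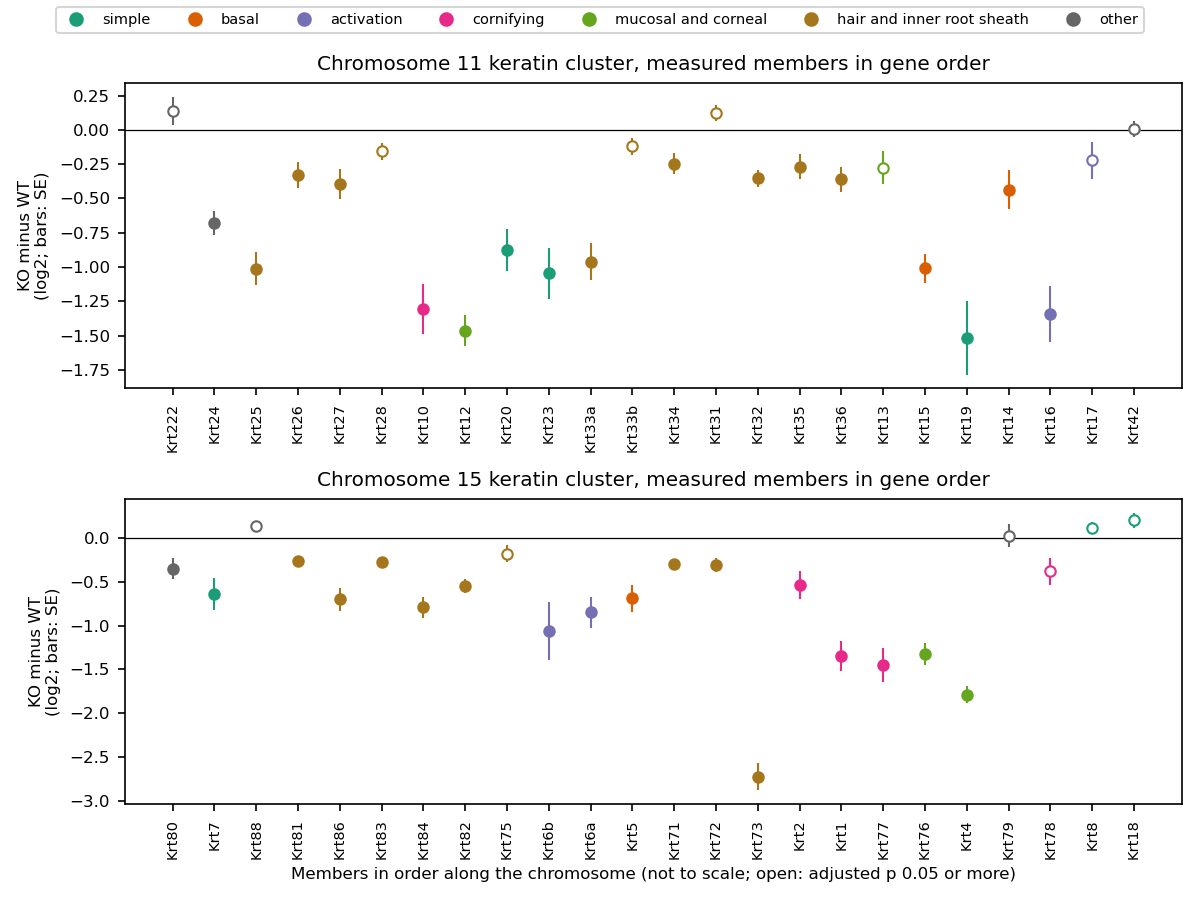
Averaged KO minus WT effect with SE (log2, y axis) of the measured keratins in gene order along the clusters of chromosomes 11 and 15, coloured by role and filled where the adjusted p is under 0.05. On chromosome 15 filled points run without a break from Krt6b to Krt4, and the 4 members after Krt4 are open.

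Other genes of the keratin system were read from lists chosen with earlier results of these data known. Their counts thus describe the lists and do not test them. Of all probe sets 10.1% fell and 10.5% rose. Of 17 measured partners of the filament, the desmosomal and hemidesmosomal proteins and linkers, 0 fell and 1 rose (limma adjusted p under 0.05), the laminin receptor chain Itga6 by 0.29. Desmoplakin, Dsp, which ties keratins to desmosomes, had -0.16, plakoglobin, Jup, -0.03, and plectin, Plec, -0.09, none of which passed on the probe set used. These calls depended on the probe set. A further probe set of Dsp fell (-0.26; limma adjusted p = 0.0477). Further ones of Dsg2 (0.29 and 0.32; adjusted p = 0.0136 and 0.0157), Pkp3 (0.25; 0.0288) and Dsc3 (0.17; 0.0306) rose. The remaining further probe sets of this list did not pass. Of 18 cornification genes 8 fell and 0 rose, with a list median of -0.36. The envelope proteins Lce3a (-1.49), loricrin, Lor (-1.44), and Sprr2d (-1.05) and the protease Klk7 (-1.16) fell, and the crosslinking enzymes Tgm1 and Tgm3 (0.09 and -0.03) and filaggrin, Flg (0.29), did not pass. In this list 8 genes passed as lower in B6, 2 in BALB and 2 in NOD, against 5.54%, 4.26% and 2.81% of all probe sets. Its mean level in B6 was 8.60 to 8.97 in WT and 7.71 to 8.11 in KO mice, without overlap, where the BALB mice had 8.48 to 9.17 and 8.19 to 8.88 and the NOD mice 7.93 to 8.43 and 7.80 to 8.0. Of 8 measured regulators of epidermal fate 1 fell, Klf4 (-0.31), and 1 rose, Grhl3 (0.25), and Trp63, which encodes the master regulator of stratified epithelium, did not pass (0.31).

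For the 9 keratins with further probe sets, 6 of the 13 belonged to genes whose averaged effect passed. Of these 6, 2 passed with the same sign, those of Krt4 and Krt12, and 1 had the opposite sign, a probe set of Krt6a. Of the 7 others 1 passed, that of Krt13. With the mean over all probe sets of a gene in place of the brightest, 37 keratins fell, 35 of them the same. In that fit 31.1% of all 18193 genes were called, against 20.6% of all probe sets in the main fit.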

How the data were processed

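Total RNA of sorted cells was isolated with Trizol and amplified in 2 rounds before biotin labelling, per the labels' protocols. Such amplification can favour 3' ends. The deposited table holds linear-scale intensities, 1 value for each array and probe set, made with RMA per the submitters' processing notes. Its settings, and which arrays were normalized together, are not given in those notes, no detection calls were used, and the scale was read from the values. Probe sets were named by the platform annotation, which gave exactly 1 symbol for 34945 of 45037 tested (64 control probe sets were left out), several for 932 and none for 9160.

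The values were taken to log2, and limma 3.58.1 (R 4.3.3) fitted a mean for each of the 6 groups over the 20 arrays (14 residual degrees of freedom), with contrasts for KO minus WT per strain and averaged with equal weight, and F tests of strain differences of the effect, among WT and among KO mice. Benjamini-Hochberg adjustment ran over all probe sets, and all adjusted p-values come from this fit unless pairing or another alternative is named. The filter at the median level adjusted over 22519 probe sets, and the mean over all probe sets of a gene over 18193 genes. The median averaged effect over all probe sets was 0.06. The code was tested on simulated data.

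The genes, roles and lists were chosen with earlier results of these data known. Values in every mouse are given for keratins that passed the averaged effect at a size of 0.5 or more, the largest effect of each role, simple and basal keratins with a mean of 8 or more, and the 4 smallest p-values of the strain difference. The 5 partner pairs and the 3 gene lists were set with them. Krt17, Krt13, Krt80 and other members named by their effects complete a role's count.

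Same-numbered mice deviated together from their group means in BALB (r = 0.46 to 0.66) and NOD (0.31 to 0.67), so the numbers count as pairing there. B6 had r = 0.78, 0.72 and -0.13 and was not counted as paired. The paired fit blocks on strain and number in all 3 strains. The labels do not say that numbers mark litters or days. Runs of submitters' sample codes (4, with 1 mouse lacking a code) are of unstated meaning. Alternatives covered scaling, an offset of 32, a filter at the median level, all probe sets of a gene, eBayes with trend, weights for arrays, 2 kinds of block, subsets of arrays, a Gapdh covariate and leaving out each mouse.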

Additional observations from a re-analysis of the deposited data

Results flagged for a closer look

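Within the BALB groups of 4 mice, 7 of 96 gene and group combinations held 1 mouse far from the other 3, where chance alone gives about 1 in 20. In WT mice these were Krt1, high at 8.47 in mouse 4, the next being 7.33, and Krt12, low at 7.86 in mouse 4, the next being 8.28. In KO mice they were Krt12, high at 7.61 in mouse 2, the next being 7.0, Krt28, high at 4.82 in mouse 2, the next being 4.50, Krt34, low at 5.71 in mouse 4, the next being 5.96, Krt8, low at 12.56 in mouse 3, the next being 12.71, and Krt83, high at 7.49 in mouse 4, the next being 7.30 (all log2 intensity). The groups of 3 were not checked this way.

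For 3 keratins the effect of Aire loss differed between strains by the F test of the difference, with adjusted p of 0.00753 for Krt20, 0.0105 for Krt79 and 0.0132 for Krt12 (limma). Krt20 fell in NOD, Krt79 rose in NOD, and Krt12 fell most in B6.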

How the results depend on the processing

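The count of keratins called in the averaged contrast was 27 to 40 in the 12 alternatives other than leaving out a mouse and 30 to 35 with each of the 20 mice left out. The filter at the median level tested 37 keratins and called 27, where 24.2% of the probe sets it kept were called, against 20.6% of all in the main fit. With the replicate block 39 keratins were lower and 1 higher, where 37% of all probe sets were called. In B6 the count of 23 became 35 with array weights, 37 with the replicate block, 14 with only B6 arrays and 10 without the 3 B6 arrays that stood apart, and was 16 to 25 leaving out each mouse. In BALB the count of 12 became 29 with the replicate block and 21 with the code run as a block (10 to 15 leaving out each mouse). In NOD the count of 12 became 23 with array weights and 22 with the replicate block (7 to 12). The strain difference of the effect called 3 keratins, 9 with array weights and 8 with the replicate block (2 to 5 leaving out each mouse). Among WT mice 13 were called, 8 with the code run as a block and 8 with only WT arrays (9 to 15), and among KO mice 15, and 28 with array weights (10 to 15). These settings moved calls over all probe sets too. With only B6 arrays 5.59% of all probe sets were called in B6, and with only WT arrays 6.46% among WT mice. With the replicate block the share called went from 8.62% to 21.5% in B6, 6.84% to 17.3% in BALB, 4.23% to 11.4% in NOD and 0.435% to 2.85% for the strain difference, and with array weights to 28.3% in B6, 15.1% in NOD, 3.78% for the strain difference and from 17.9% to 57.4% among KO mice. With the code run as a block it was 10.9% in BALB and 6.38% among WT mice, against 11.3%, and without the 3 B6 arrays 2.76% in B6. B6 numbers were not counted as pairs, and with the replicate block the B6 effects of Krt20, Krt79 (lower) and Krt18 (higher) passed (adjusted p = 0.027, 0.00535 and 0.00995), those of Krt20 and Krt79 also with array weights. The Krt79 averaged effect, 0.02, was -0.00732 with quantile normalization, -0.0396 with array weights, -0.00059 with the code run as a block and -0.0429 without the 3 B6 arrays, and ran from -0.0348 to 0.0899 leaving out each mouse. It did not pass in any. The other keratins with values given in every mouse kept the sign of their averaged effect in all alternatives that tested them. Apart from calls named in the report, no call of an averaged effect changed with the replicate block except those of Krt13 and Krt28, which passed as lower. The array number limits precision.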

Other observations

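Among KO mice 15 keratins differed between strains (F test in limma; 17.9% of all probe sets passed). NOD KO mice were lowest in Krt8 and Krt18, as NOD WT mice were, with 12.31 ± 0.12 against 12.92 ± 0.21 in B6 for Krt8 (mean ± SD, n = 3 and 3; limma adjusted p = 0.00319) and 11.06 ± 0.04 against 12.17 ± 0.25 for Krt18 (adjusted p = 0.000113). Levels left in KO mice of some keratins that fell differed too. Krt73 stood at 6.62 ± 0.35 in BALB KO mice and 4.98 ± 0.30 in B6 KO mice (adjusted p = 0.000688), while the F test of its WT levels did not pass (adjusted p = 0.845). Krt10 was higher in BALB KO than in B6 KO mice by 1.77 ± 0.30 (adjusted p = 0.001) and Krt77 by 1.32 ± 0.32 (adjusted p = 0.0133). The F tests among KO mice of Krt8 and Krt73 did not pass without the 3 B6 arrays that stood apart or with the run of sample codes as a block (adjusted p up to 0.23 and 0.0884), and those of Krt10, Krt18 and Krt77 passed in all 32 alternatives.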
